A study of Mus musculus with 12 samples.

Results

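Untreated ENS primary cultures, the control group of the study, were described from 3 of its 12 microarrays, chosen because their labels name the control condition. The cells came from gut of mouse embryos, e14.5 per the labels, while the study's methods give a range of embryonic days that ends there. The methods name the Sox10flox mouse line, whose modified allele they treat as without bearing on the work, and describe a mixed cell population that holds enteric neurons and enteric glial cells (EGC). By the authors' own immunohistochemistry, EGC and neurons together were a minority of the cells, with a larger share of EGC than of neurons. After digestion the cells were kept for 24 h in medium with 10% fetal calf serum and then in serum-free medium with N2 supplement. The other 9 arrays, which hold cultures given 50 µM 6-MP for 16 h, 10 ng/ml LPS for 6 h, or both in that order, were left out of the description. The question was which cell types of the gut wall, which receptors and which secreted factors such cultures express before any treatment.

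The enteric nervous system arises from neural crest cells that enter the embryonic gut and form neurons and glia between layers of smooth muscle. Their survival and migration depend on signals from the surrounding mesenchyme, among them GDNF acting on the receptor kinase RET and endothelin-3 acting on the receptor EDNRB. A culture made from dissociated embryonic gut can therefore hold mesenchyme, muscle, resident macrophages and epithelium beside neurons and glia. In such bulk samples, fewer cells of a type and less RNA per cell cannot be told apart.

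Of 22206 transcript clusters (the probe sets of the Clariom S array, 1 or more per gene), 13826 lay above the silent-receptor level and 5935 under it, which is 62.3% and 26.7%. That level was, on each array, the 90th percentile of 1452 clusters of receptor genes for odorants, pheromones and tastes, because cells of the gut wall have no known use for most of these genes. It stood at 5.71 in control 1, 5.94 in control 2 and 5.73 in control 3 on the log2 scale. A cluster was called above or under it when limma gave a Benjamini-Hochberg adjusted p under 0.05 over all clusters, so the spread between the 3 arrays entered each call. Of the 1452 silent clusters themselves, 63 (4.34%) were called above, a share held low in advance because the level is their own 90th percentile. Ranks are positions of a cluster's signal, and since probe sets differ in how brightly they report a transcript, they do not order genes by abundance.

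The 3 arrays resembled each other, with Pearson r of 0.988, 0.99 and 0.987 across clusters, which are not independent replicates. The median SD of a cluster over the arrays was 0.24. The arrays nevertheless stood apart in groups of genes that are described below. Clusters above the level that read more than 1 higher than on both other arrays numbered 72 for control 1, 164 for control 2 and 102 for control 3. Control 2 was high in interferon-stimulated genes, control 1 in smooth muscle genes and control 3 in some keratin and cornified envelope genes, which were picked out after their values had been seen. The study's methods give 3 independent experiments, and nothing else in the labels tells the arrays apart.

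**Figure D1:**
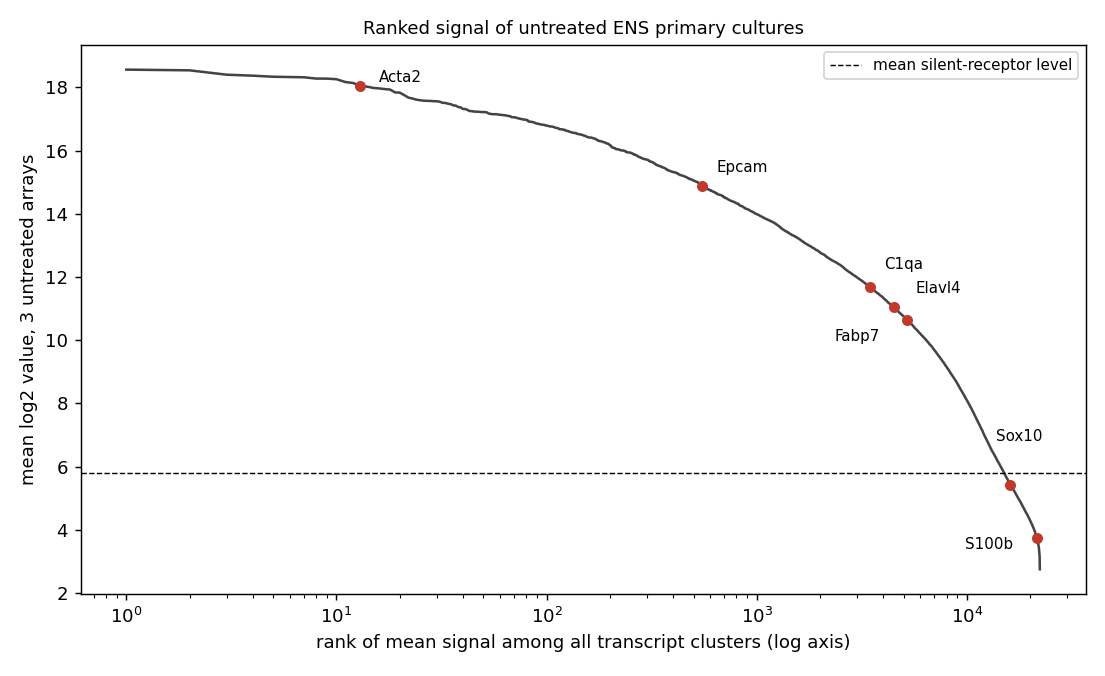
Mean log2 value of each of the 22206 transcript clusters against its rank on a log axis, with marker genes as red points and the mean silent-receptor level as a dashed line. Acta2 held rank 13 and Epcam rank 551, C1qa, Elavl4 and Fabp7 lay between ranks 3447 and 5172, and the glial genes Sox10 and S100b lay below the line.

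Genes of structural proteins, translation and metal binding gave the brightest signals. The translation elongation factor gene Eef1a1 was the first named gene, at rank 3, with 18.47, 18.35 and 18.39 in controls 1, 2 and 3. It was followed by the metallothionein genes Mt2 at rank 5 and Mt1 at rank 8, whose products bind zinc and copper. Mt2 read 18.43, 18.38 and 18.21, and Mt1 read 18.40, 18.32 and 18.13, with ranges of 0.21 and 0.28 between the arrays. Next came Acta2 (smooth muscle actin), Actb (cytoplasmic actin), the ferritin heavy chain gene Fth1, Dad1, Gapdh, a cluster annotated as Mir675, and the fetal growth factor gene Igf2. Igf2 read 17.48, 17.39 and 17.92. The remaining named genes of the first 25 were those of the ribosome (Rpl21, Rplp1, Rps6, Rpl28, Rps23), of the endoplasmic reticulum (Hspa5, Calr), of the cytoskeleton (Tmsb4x, Cdc42, Tuba1b, Tpm1), and Hnrnpk, Cox7c, Ppia and the matrix gene Sparc. All 25 lay within the first 43 ranks, of which the other 18 clusters were left unnamed because no single symbol was assigned to them.

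The metallothionein pair lies side by side on chromosome 8, and the promoter windows of both genes are printed because they are known for the metal response element, which the zinc-sensing factor MTF1 binds. Each window runs from 250 bases before to 50 bases after the gene start (RefSeq, GRCm38.p6), at chr8:94178839-94179138 for Mt1 and chr8:94172368-94172667 for Mt2, both on the plus strand. Capitals mark matches to the core, searched as TGCACNC and TGCGCNC on both strands, where matches may overlap.
Mt1: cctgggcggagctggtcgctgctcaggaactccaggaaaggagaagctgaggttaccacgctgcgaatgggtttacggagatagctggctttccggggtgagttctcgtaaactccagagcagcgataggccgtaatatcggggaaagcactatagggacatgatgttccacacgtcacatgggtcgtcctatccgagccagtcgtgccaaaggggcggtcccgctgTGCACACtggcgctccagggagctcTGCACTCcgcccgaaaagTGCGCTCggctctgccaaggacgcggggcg
Mt2: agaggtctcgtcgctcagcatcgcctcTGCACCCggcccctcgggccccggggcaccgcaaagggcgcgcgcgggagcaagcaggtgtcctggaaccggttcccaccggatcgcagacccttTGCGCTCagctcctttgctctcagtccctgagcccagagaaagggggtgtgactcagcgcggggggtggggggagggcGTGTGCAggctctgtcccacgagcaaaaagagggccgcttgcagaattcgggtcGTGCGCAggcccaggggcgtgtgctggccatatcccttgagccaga
The Mt1 window held 3 matches and the Mt2 window 4, while 25.7% of all 32851 windows of this length held at least 1. A match describes letters only.

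Genes of enteric neurons were nearly all above the silent-receptor level, with 20 of the 21 measured genes of the list called above, against 62.3% of all clusters. Their median mean value was 9.79, against 7.50 over all clusters. Elavl4, which encodes a neuronal RNA-binding protein, read 10.68, 11.68 and 10.76 in controls 1, 2 and 3 and held rank 4491. Its value lay 5.24 ± 0.20 (SE, n = 3 arrays) above the silent-receptor level, with a limma adjusted p of 1.5e-09. The neurites' tubulin-binding stathmin gene Stmn2 read 13.60, 14.49 and 13.77, and the intermediate filament gene Prph, typical of peripheral neurons, read 11.63, 12.44 and 12.04. Rtn1, Syt1 (a synaptic vesicle calcium sensor), Gap43 (growth cones) and Tubb3 (neuronal tubulin) followed, with mean values of 12.41, 11.88, 11.49 and 11.14. The receptor kinase gene Ret, which enteric progenitors need, read 8.88, 9.93 and 9.46. The only gene under the level was Insm1, a factor of early endocrine and neuronal differentiation, with 4.70, 5.07 and 5.06. Control 2 was the highest array for 20 of the 21 genes and control 1 the lowest for 19, against 34.5% and 31.4% of all clusters.

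Glial and neural crest genes were mixed, with 11 of 16 above (68.8%, near the 62.3% of all clusters), 3 under and 2 called neither. Fabp7, a fatty acid-binding protein of immature glia, read 10.08, 11.17 and 10.72 and held rank 5172, 4.86 ± 0.20 (SE, n = 3 arrays) above the level (limma adjusted p = 2.94e-09). Ednrb, the endothelin receptor of migrating crest cells, read 14.29, 13.78 and 13.89, although other cells of the gut wall can express it too. Erbb3 (a neuregulin receptor) read 9.60, 9.84 and 10.03, Gfra1 (the GDNF co-receptor) read 10.15, 10.33 and 10.47, and Cdh19 (a cadherin of crest-derived glia) read 8.56, 8.98 and 8.76. These were thus above the level on every array. The 3 genes most used to define glia were dim. Sox10, the transcription factor of crest cells and glia, read 5.29, 5.68 and 5.31 and was called neither above nor under (limma adjusted p = 0.0526). S100b, a calcium-binding protein of mature glia, read 3.73, 3.92 and 3.52 and lay under the level. Gfap, the glial intermediate filament gene, read 6.38, 6.47 and 6.50, which was 0.65 ± 0.16 (SE, n = 3 arrays) above it (limma adjusted p = 0.00325) but lay under the 90th percentile of 23 antigenomic background entries (7.70 to 7.83 on the arrays). Foxd3 and Tfap2b, crest factors, read 4.88, 5.86 and 5.75, and 4.02, 3.54 and 3.88. Against that antigenomic level, which is higher, 16 of the 21 neuronal genes and 7 of the 16 glial genes were called above. The share of the glial genes was near that of all clusters, of which 9849 of 22206 were above the antigenomic level. That is the share to set beside the antigenomic counts of other lists.

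Genes of visceral smooth muscle gave some of the brightest signals, with 15 of 16 above and a median of 13.78. Acta2 read 18.28, 17.77 and 18.10, ranking 8th, 21st and 11th on the 3 arrays. Tpm1 (tropomyosin) read 17.48, 17.09 and 17.19, Actg2 (enteric actin) 17.12, 16.28 and 16.74, and Tagln (transgelin) 16.29, 15.81 and 15.91. Probe sets of the actin genes may share sequence, so their signals are not fully separate. The contractile genes differed more between the arrays than most clusters did. Myh11, the smooth muscle myosin heavy chain, read 14.42, 12.10 and 13.45, and Mylk, the kinase that starts contraction, read 13.53, 11.02 and 12.80. Myocd, the coactivator of the contractile programme, read 8.27, 5.13 and 6.87 and was called neither. All 16 genes were highest in control 1 and lowest in control 2, against 32.9% and 35.3% of all clusters, and the mean over the list was 14.03, 12.7 and 13.38. The order of the arrays was thus the reverse of that of the neuronal genes, and with 3 arrays no test of it was made.

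The CArG box, the site of serum response factor with which the MYOCD protein works, was looked for in the promoter windows of the smooth muscle list because its genes moved together across the arrays. The box was searched as CCWWWWWWGG, where W is A or T, so looser forms and sites outside the window were not looked for. Of the 12 genes with a window, 1 held this strict form, Myl9 (the regulatory myosin light chain), against 1.81% of 27025 genes. Myl9 read 15.64, 14.90 and 15.30. Its window lies at chr2:156775214-156775513 on the plus strand (GRCm38.p6), and the box stands in capitals.
Myl9: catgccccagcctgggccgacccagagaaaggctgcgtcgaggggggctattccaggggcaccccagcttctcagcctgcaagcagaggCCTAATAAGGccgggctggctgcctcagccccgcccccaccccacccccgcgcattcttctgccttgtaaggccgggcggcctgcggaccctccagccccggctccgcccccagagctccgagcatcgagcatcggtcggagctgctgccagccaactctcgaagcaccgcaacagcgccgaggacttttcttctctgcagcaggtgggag

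Genes of mesenchyme, pacemaker cells and the mesothelial cover of the gut were mostly above the level. Of the fibroblast list, 11 of 13 genes were above the level, among them the proteoglycan gene Dcn (17.06, 16.63 and 16.75), Vim (16.87, 16.47 and 16.83), Col3a1 (15.71, 15.88 and 16.35) and Col1a1 (15.60, 15.52 and 15.92). The values of each of these differed by less than 1 between the arrays. Pi16, a marker of adventitial fibroblasts, was under the level with 4.16, 4.37 and 4.32. Of the transcription factors of gut mesenchyme, 17 of 21 were above, with Foxf1, the target of hedgehog signals in the gut mesoderm, at 11.73, 11.49 and 11.36. All 6 measured genes of interstitial cells of Cajal, the pacemakers of gut motility, were above, and 4 of them passed the antigenomic level. Ano1, their chloride channel, read 10.21, 10.35 and 11.35, and the stem cell factor receptor gene Kit 8.48, 9.17 and 9.58. Without control 1 or without control 3, 5 of these 6 were called above. Of 11 mesothelial genes 10 were above, and 6 passed the antigenomic level. The brightest, however, were keratin genes that epithelium shares (Krt8, Krt18 and Krt19). The mesothelial factor gene Wt1 read 7.12, 7.55 and 7.31, under the antigenomic level.

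**Figure D2:**
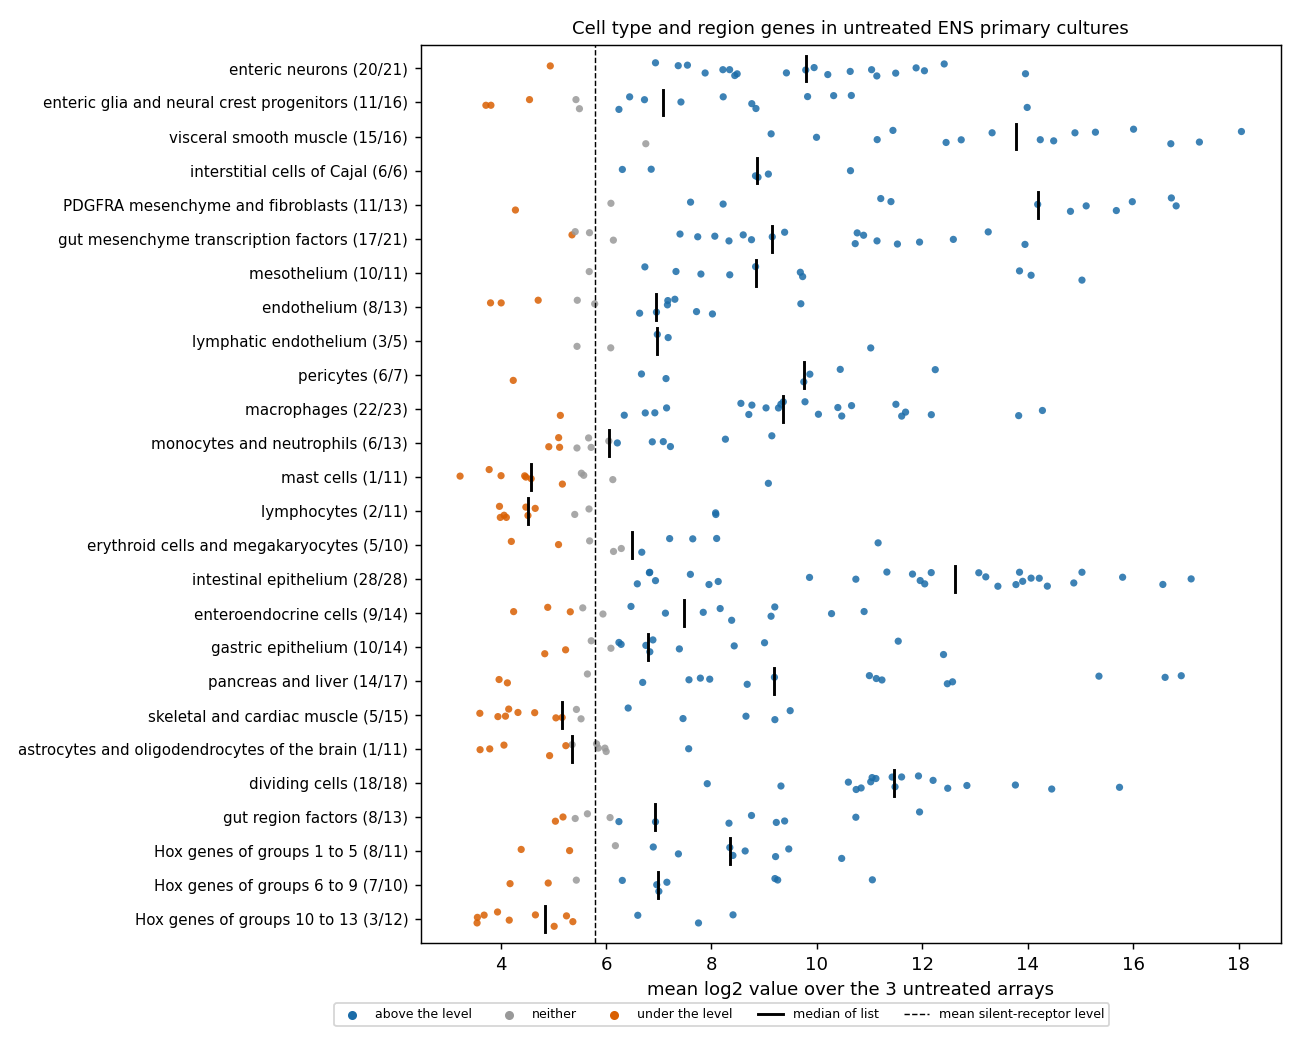
Mean log2 value over the 3 untreated arrays of each measured gene (points, coloured by call) in the lists of cell types and gut regions, with the median of each list as a black bar and the mean silent-receptor level dashed. Numbers in brackets give genes above the level of genes measured. Intestinal epithelium (28 of 28) and dividing cells (18 of 18) lay wholly to the right of the line, while mast cells had 1 of 11 genes above it.

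Genes of blood and vessel cells differed in their share above the level, with macrophage genes called above in 22 of 23 cases. C1qa, a subunit of the complement component that macrophages secrete, read 12.56, 11.00 and 11.49 and held rank 3447, 5.89 ± 0.29 (SE, n = 3 arrays) above the level (limma adjusted p = 1.29e-08). Lyz2 (lysozyme) read 14.54, 14.29 and 14, Spi1 (the factor PU.1 of myeloid cells) 13.95, 14 and 13.53, and Csf1r (the receptor for the macrophage growth factors) 10.84, 10.30 and 10.27. Mrc1, the mannose receptor of tissue macrophages, read 12.31, 11.00 and 11.19. Control 1 was the highest array for 16 of the 23 genes and the lowest for none. Cd163, a haemoglobin scavenger receptor of some resident macrophages, was under the level with 5.12, 5.23 and 5.05.

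Genes of other blood cells were above less often. Of monocyte and neutrophil genes 6 of 13 were above (46.2%, against 62.3% of all clusters), and 0 of the 13 passed the antigenomic level. Control 2 was the highest array for 12 of the 13. Ngp, a granule protein gene of developing neutrophils, read 8.45, 11.73 and 7.25, and S100a8 read 6.40, 9.59 and 5.67. Without control 2, 4 of the 13 were called above. Among mast cell genes 1 of 11 was above, which was Kit, while the protease genes Cpa3, Mcpt4 and Cma1 were under the level. Lymphocyte genes were above in 2 of 11 cases (18.2%), and 0 of the 11 passed the antigenomic level. The 2 were Cd4 and Il7r, both of which myeloid cells can express, while Cd3e and Cd79a were under the silent-receptor level. Erythroid and megakaryocyte genes were above in 5 of 10 cases (50%), with 2 under and 3 neither. Of the 10, 1 passed the antigenomic level, Hbb-y. The embryonic globin gene Hbb-y read 11.27, 10.47 and 11.74, while Hbb-bh1, another embryonic globin gene, was under with 5.04, 5.77 and 4.48, and globin genes are near copies of each other. Endothelial genes were above in 8 of 13 cases, a share of 61.5% against 62.3% of all clusters, and 1 of the 13, Eng, passed the antigenomic level. Pecam1, their adhesion molecule, read 7.07, 7.45 and 7, under the antigenomic level, whereas Cldn5, Sox17 and Plvap lay under the level. Pericyte genes were above in 6 of 7 cases, with Rgs5 at 10.63, 9.31 and 9.31.

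Epithelial genes were bright, and all 28 measured genes of the intestinal list were above the level, with a median of 12.62. Epcam, the epithelial adhesion molecule, read 14.99, 15.04 and 14.59 and held rank 551, 9.08 ± 0.17 (SE, n = 3 arrays) above the level (limma adjusted p = 2.27e-11). The lipoprotein genes of the absorptive cells, Apoa4 and Apoa1, read 16.91, 17.65 and 16.73, and 16.49, 17.03 and 16.16. Cdh1 (E-cadherin) read 15.48, 16.00 and 15.92, Cldn4 (a tight junction claudin) 13.90, 14.84 and 13.91, and Alpi (intestinal alkaline phosphatase) 13.82, 14.71 and 14.58. Cdx2, the factor that sets intestinal identity, read 10.34, 10.89 and 10.98. The goblet cell genes Muc2 and Tff3 read 11.56, 12.06 and 11.82, and 13.70, 14.02 and 12.58, and the stem cell gene Lgr5 read 7.10, 6.79 and 6.57. Lgr5 lay under the antigenomic level.

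Enteroendocrine genes were above in 9 of 14 cases (64.3%, near the 62.3% of all clusters), and 4 of the 14 passed the antigenomic level. Pyy (peptide YY) read 10.30, 11.96 and 10.42, Cck (cholecystokinin) 9.97, 11.60 and 9.26, Sst (somatostatin) 8.48, 10.02 and 8.89, and Gcg (the precursor of glucagon-like peptides) 9.19, 10.08 and 8.33. Control 2 was highest for each of these 4 and for 10 of the 14 genes. Gast (gastrin) and the early factor genes Neurog3 and Pax4 were under the level.

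Some genes of organs beside the intestine were also above the level. Of pancreas and liver genes 14 of 17 were above, among them the acinar enzyme genes Ctrb1 (16.07, 17.33 and 17.33), Amy2a5 (16.19, 16.31 and 17.31) and Cpa1 (14.25, 15.73 and 16.07). Amylase and chymotrypsinogen genes have close copies, so these signals may come from more than 1 gene. The pancreatic progenitor factor genes Pdx1 and Ptf1a were not above, with 5.51, 5.54 and 5.90, and 3.96, 3.97 and 3.99. Alb (albumin), the main product of hepatocytes, read 10.80, 14.76 and 7.42, so that the range between arrays was 7.34. Of gastric genes 10 of 14 were above (71.4%, against 62.3% of all clusters), and this count was 6 without control 3. The antigenomic level was passed by 3 of the 14, Cldn18, Tff1 and Gkn2, while Muc5ac and Sox21 were under the silent-receptor level. Cldn18, a claudin of stomach and lung, read 10.07, 12.87 and 14.26, Tff1 9.28, 12.53 and 12.82, and Gkn2 7.67, 8.87 and 10.48. Control 1 was the lowest array for 13 of the 14 gastric genes and control 3 the highest for 11.

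Skeletal and cardiac muscle genes were above in 5 of 15 cases, Tnnt2, Myl1, Ckm, Actc1 and Acta1, of which the first 3 also passed the antigenomic level. Tnnt2 read 10.12, 8.62 and 9.74, and Myl1 8.88, 9.89 and 8.84. The factor genes of the skeletal muscle programme, Myod1, Myog, Myf5 and Pax7, were all under the level. Of genes of brain astrocytes and oligodendrocytes, 1 of 11 was above, Aldh1l1, and Olig1, Mog and Mag were under. All 18 genes of dividing cells were above, with the replication clamp gene Pcna at 15.77, 15.81 and 15.63, Mki67 at 14.10, 13.63 and 13.55, and the mitotic kinase gene Cdk1 at 11.09, 10.61 and 10.81.

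Among genes that mark position along the gut, those of the last Hox groups were mostly under the level. Of Hox genes, whose group number runs from the front to the back of the body, 8 of 11 measured in groups 1 to 5 were above. In groups 6 to 9 it was 7 of 10, and in groups 10 to 13 it was 3 of 12. The shares were 72.7% and 70%, near the 62.3% of all clusters, and 25%. The antigenomic level was passed by 6, 3 and 1 of these genes. Hoxa5 read 10.61, 10.63 and 10.17 and Hoxc6 read 11.74, 10.56 and 10.85, while the genes of group 13, those of the hindgut (Hoxa13, Hoxb13, Hoxc13 and Hoxd13), were all under the level. Barx1, the factor of stomach mesenchyme, read 8.08, 8.53 and 11.56, with control 3 apart from the others. Nkx2-3, of midgut and hindgut mesoderm, read 8.73, 7.69 and 8.57. Control 3 was also the highest array for most of the gastric genes.

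Of the 15 named genes with the largest SD between the arrays, 10 were highest in control 3 and 5 in control 2. Cnfn (cornifelin) read 6.95, 6.97 and 13.45, Sprr3 (a cornified envelope protein) 8.54, 7.19 and 13.80, Krt4 10.43, 11.33 and 15.72, and Krt13 12.13, 11.94 and 15.87. Krt4 and Krt13 are the keratin pair of the oesophagus and forestomach. A list of 19 such genes, drawn up after these values had been seen, had a mean of 7.35 in control 1, 7.35 in control 2 and 10.03 in control 3, with 17 of 19 genes highest in control 3, against 32.6% of all clusters. Because genes that stood out in control 3 prompted the list, these values only restate that choice and support nothing. Without control 3, 12 of the 19 were called above, against 15 with it. Bpifb1, a secreted defence protein of airway and upper gut epithelium, read 9.55, 11.72 and 15, and Cyp2f2 8.62, 9.51 and 12.84. Lung factor and surfactant genes were under the level, however, with Nkx2-1 at 3.64, 3.75 and 3.58 and Sftpc at 5.27, 4.46 and 5.03. Reg3g and Reg3b, antimicrobial lectins of the gut epithelium, were highest in control 2, with 9.47, 15.22 and 11.46, and 12.13, 16.67 and 14.52. Pga5, a pepsinogen gene, read 3.77, 8.55 and 7.23, which left it called neither. Which stretches of gut entered each experiment is not given in the sources used here, and its part in these differences was not tested.

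**Figure D3:**
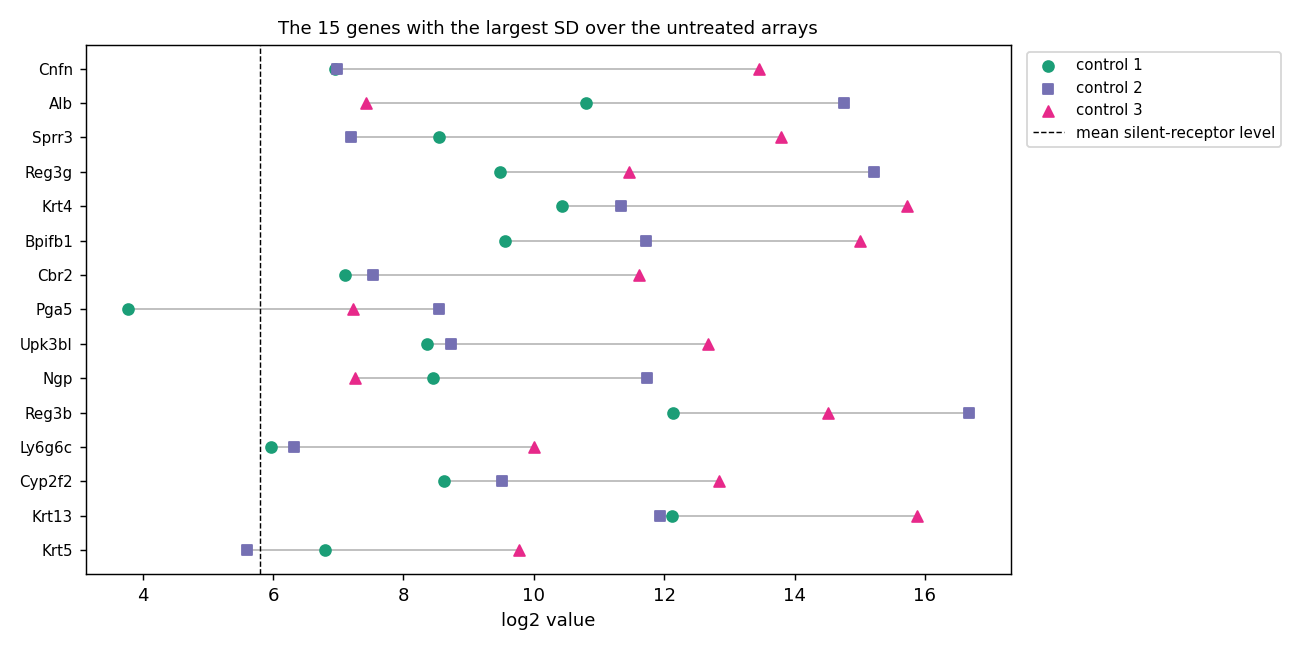
Log2 values in control 1, control 2 and control 3 of the 15 named genes with a mean above the silent-receptor level (dashed) and the largest SD. For Cnfn controls 1 and 2 lie together near 7 while control 3 lies at 13.45, and Alb spans from 7.42 in control 3 to 14.76 in control 2.

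Interferon-stimulated genes block viral growth and are normally induced through the receptor of type I interferon. They were above the level in 23 of 30 cases (76.7%, against 62.3% of all clusters), and 10 of the 30 passed the antigenomic level. Control 2 was the highest array for 27 of the 30 and control 3 the lowest for 24, and the mean over the list was 7.55, 8.77 and 7.06. Ifit3 read 8.69, 10.99 and 7.23, Rsad2 (viperin) 6.78, 8.88 and 6.71, Xaf1 9.50, 11.73 and 9.19, and Irf7, the factor that amplifies interferon production, 5.78, 8.09 and 4.98. In control 2 each of these 4 genes read more than 2 higher than on both other arrays, although Irf7 was called neither. The neutrophil genes and the enteroendocrine peptides were also highest there, and their part in the interferon genes' values was not tested.

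Promoter windows of Ifit3 and Rsad2 are printed because genes of this list are known for the interferon-stimulated response element. They lie at chr19:34583279-34583578 on the plus strand and at chr12:26456403-26456702 on the minus strand (RefSeq, GRCm38.p6). Capitals mark a match on either strand to GAAA, 2 free bases and GAAA, where matches may overlap. Of all 32851 windows 3.44% held a match.
Ifit3: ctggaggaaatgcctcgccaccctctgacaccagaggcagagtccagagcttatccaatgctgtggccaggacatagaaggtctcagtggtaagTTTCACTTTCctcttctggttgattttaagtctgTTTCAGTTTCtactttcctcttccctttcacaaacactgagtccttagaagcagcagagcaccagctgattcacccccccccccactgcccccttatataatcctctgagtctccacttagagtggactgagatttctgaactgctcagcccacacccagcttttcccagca
Rsad2: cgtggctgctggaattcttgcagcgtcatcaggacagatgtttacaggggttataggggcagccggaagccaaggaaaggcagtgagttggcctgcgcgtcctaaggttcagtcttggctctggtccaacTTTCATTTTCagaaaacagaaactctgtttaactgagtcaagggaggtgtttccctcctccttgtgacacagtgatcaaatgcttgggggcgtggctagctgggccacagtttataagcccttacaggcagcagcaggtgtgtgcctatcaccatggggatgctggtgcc
Of the 20 listed genes with a window, 10 held the motif (Bst2, Ddx60, Gbp3, Ifit1, Ifit3, Isg15, Oas1a, Oas3, Rsad2 and Stat2), against 3.99% of 27025 genes.

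**Figure D4:**
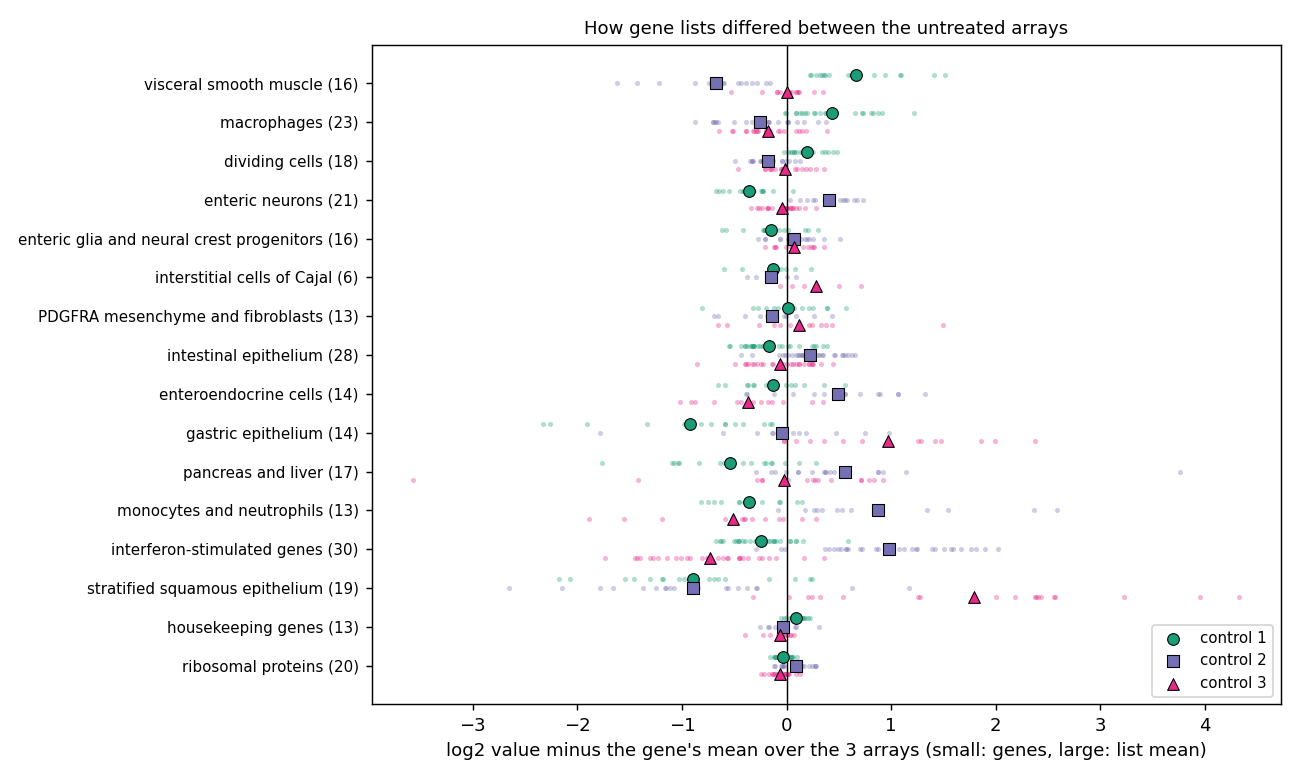
Log2 value minus the gene's own mean over the 3 arrays for the genes of 16 lists (small points) and the mean of each list (large symbols), by array; the number of genes stands in brackets. Control 1 lies to the right for smooth muscle and macrophages, control 2 for neurons, neutrophils and interferon-stimulated genes, and control 3 for gastric and squamous genes, while housekeeping and ribosomal protein genes lie close to 0.

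Of 356 measured receptor genes, 213 were above the level (59.8%, near the 62.3% of all clusters), 82 under it and 61 neither. Receptors for bacterial and viral products were above in 23 of 30 cases, adaptors included. For the recognition of LPS, Tlr4, the receptor gene, read 9.37, 9.11 and 9, its co-receptor Ly96 (MD-2) 12.73, 12.36 and 12.57, Cd14, which loads it, 9.31, 9.62 and 8.69, and the serum protein gene Lbp 8.15, 9.62 and 9.46. The adaptor genes Myd88, Ticam1 and Tirap read means of 10.04, 9.74 and 9.60, while Ticam2, the bridging adaptor for TRIF, was under the level with 4.79, 4.31 and 3.98. Of these 8 genes Ticam2 was thus the only one not above the level. Tlr7, an endosomal RNA sensor, read 12.14, 10.87 and 11.25, and Tlr2, which senses lipopeptides, 9.23, 10.29 and 9.58. Tlr9, Tlr11 and Tlr12 lay under the level, as did Nod2 and Nlrp3, the inflammasome sensor, with 4.61, 4.97 and 4.18.

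Cytokine receptors of broad use were above, with 17 of 21 in the interleukin-1, TNF and IL-17 list and 24 of 35 (68.6%, near the 62.3% of all clusters) in the interferon and interleukin list. Il1r1, the receptor for interleukin-1, read 11.77, 12.09 and 11.70, Tnfrsf1a (TNF receptor 1) 11.26, 12.11 and 11.82, and Ltbr (the lymphotoxin receptor) 12.95, 13.32 and 13.22. Both chains of the type I and type II interferon receptors were above, with Ifnar2 at 13.52, 13.11 and 13.35 and Ifngr1 at 13.87, 13.72 and 13.23. Il6st (gp130), the chain shared by the interleukin-6 family, read 14.44, 13.69 and 14.46, whereas Il6ra, which binds interleukin-6 itself, read 6.57, 5.88 and 6.20 and was called neither. Il10rb read 12.57, 12.29 and 12.52 and Il10ra 6.90, 6.57 and 6.66. Il6ra was thus the only one of these 4 chains that was not called above, but Il10ra and Il6ra both lay under the antigenomic level. Of receptor chains best known from lymphocytes, Il2rb, Il12rb1 and Il21r were under the silent-receptor level and Il2ra was neither. Il7r, Il2rg, Il12rb2 and Il15ra were above it, although none of these 4 passed the antigenomic level.

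Chemokine receptors were the list of receptors with the lowest share above, 5 of 22, which were Ccr1, Ccr7, Cxcr4, Cx3cr1 and Ackr3. Cxcr4, the receptor for CXCL12, read 8.08, 9.08 and 8.18. Cx3cr1, a receptor of resident macrophages, read 8.14, 6.22 and 6.41, highest in control 1 as were most macrophage genes. Ccr2, the receptor of inflammatory monocytes, was under the level with 4.71, 5.73 and 4.91, and Cxcr2, that of neutrophils, was neither, with 6.15, 6.35 and 5.66.

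Growth factor receptor kinases were above in 24 of 30 cases. Axl (a receptor for GAS6) read 13.17, 12.53 and 13.13, Ddr2 (a collagen receptor) 13.07, 12.40 and 13.09, and Insr (insulin) 12.18, 12.46 and 12.91. Pdgfrb read 11.62, 10.75 and 11.84, Igf1r 10.97, 10.69 and 11.24, and Met (hepatocyte growth factor) 10.90, 11.10 and 10.91. Ntrk3, the neurotrophin-3 receptor of enteric neurons, read 5.88, 6.94 and 6.09 and was above, while Ntrk2 ranged from 4.77 in control 1 to 7.29 in control 3 and was neither. Erbb4 and Ltk were under.

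Receptors of the developmental signals were above in 26 of 32 cases, with a median of 9.47. Bmpr2 and Bmpr1a, the BMP receptors, read 14.19, 14.06 and 13.92, and 12.68, 12.50 and 12.12. Fzd2 and Fzd7 (WNT receptors) read 13.19, 12.66 and 13.33, and 12.43, 11.51 and 12.06. Ptch1, both receptor and target gene of hedgehog signals, read 11.54, 11.43 and 11.60. GDNF family co-receptors split, with Gfra2, which binds neurturin, at 9.84, 11.01 and 10.33 and Gfra3, which binds artemin, under the level with 4.50, 4.91 and 4.53. Hhip, an inhibitor of hedgehog that is also in the smooth muscle list, read 10.54, 8.26 and 8.60.

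**Figure D5:**
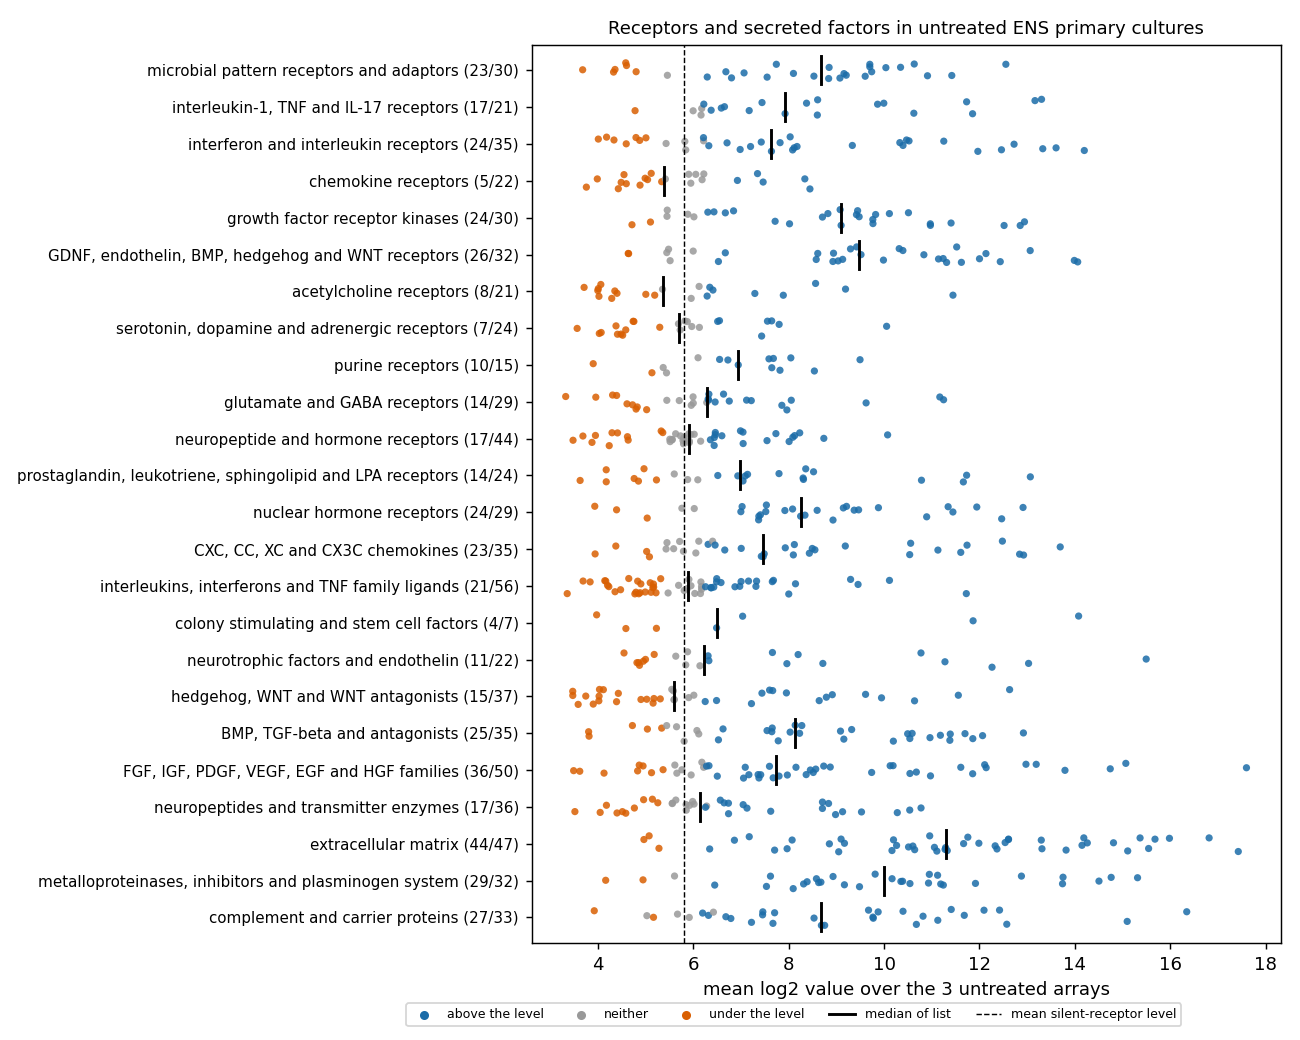
Mean log2 value over the 3 untreated arrays of each measured receptor or secreted factor gene (points, coloured by call), by list, with list medians as black bars and the mean silent-receptor level dashed. Matrix (44 of 47) and metalloproteinase genes (29 of 32) lay mostly right of the line, while chemokine receptors (5 of 22) and serotonin, dopamine and adrenergic receptors (7 of 24) lay mostly at or left of it.

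Receptors for transmitters were above for part of their families. Acetylcholine receptors were above in 8 of 21 cases (38.1%, against 62.3% of all clusters), and 3 of the 21 passed the antigenomic level. Among these 3 were the ganglionic nicotinic subunits Chrna3 (11.18, 11.58 and 11.57) and Chrnb4 (8.72, 9.41 and 9.45). Of the muscarinic receptors, Chrm2 and Chrm3, those of gut muscle, were above, with Chrm2 at 8.97, 7.88 and 8.84. Chrm3, with a mean of 6.41, lay under the antigenomic level. Chrm1, Chrm4 and Chrm5 were under the silent-receptor level. Chrna7, the nicotinic subunit of cholinergic anti-inflammatory signals, read 5.69, 6.53 and 6.65 and lay under the silent-receptor level in control 1. Of the serotonin, dopamine and adrenergic list 7 of 24 were above (29.2%), and 1 of the 24, Htr3a, passed the antigenomic level. Htr3a, the serotonin-gated channel of enteric neurons, read 10.31, 10.35 and 9.50, and Htr4, through which prokinetic drugs act, 7.46, 7.58 and 7.89. No dopamine receptor of the 5 measured was called above, and Drd2 was under with 3.65, 3.65 and 3.39.

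Purine receptors were above in 10 of 15 cases (66.7%, near the 62.3% of all clusters), and 2 of the 15 passed the antigenomic level. Among those above were P2rx4 (9.80, 9.63 and 9.06), P2ry1 (8.80, 8.37 and 8.45), the receptor of inhibitory purinergic transmission to gut muscle, and P2rx7 (8.19, 6.97 and 7.78), the ATP-gated channel of macrophages. P2ry12 and P2ry13 were highest in control 1, with 8.63, 6.83 and 7.31, and 7.48, 5.72 and 6.46. Glutamate and GABA receptors were above in 14 of 29 cases (48.3%), and 3 of the 29 passed the antigenomic level. Gabbr1 read 11.21, 11.21 and 11.32 and Gria3 11.66, 10.70 and 11.14. Of the 44 neuropeptide and hormone receptors 17 were above (38.6%), and 3 of the 44 passed the antigenomic level. Calcrl with Ramp1, which together form the receptor for calcitonin gene-related peptide, read 10.04, 10.38 and 9.81, and 8.78, 8.56 and 8.87. Vipr1 and Adcyap1r1 (receptors for VIP and PACAP) read means of 8.09 and 8.23. The tachykinin receptors were not above, Tacr1 with 6.47, 5.25 and 6.13 and Tacr2 and Tacr3 under the level. Agtr2, an angiotensin receptor of fetal mesenchyme, read 7.07, 7.75 and 9.56.

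Lipid mediator receptors were above in 14 of 24 cases (58.3%, against 62.3% of all clusters), and 6 of the 24 passed the antigenomic level. Lpar1, for lysophosphatidic acid, read 13.51, 12.68 and 13.01, S1pr3, for sphingosine 1-phosphate, 11.41, 9.86 and 11.09, and the prostaglandin E2 receptor gene Ptger4 7.70, 9.35 and 7.87. Nuclear receptors were above in 24 of 29 cases. Nr2f2 (COUP-TFII) read 12.51, 13.05 and 13.18, Nr1h4, the bile acid receptor of intestinal epithelium, 12.84, 12.14 and 12.41, Pparg 11.93, 12.38 and 11.51, and Rarb, itself a target of retinoic acid, 11.91, 10.89 and 11.53. Nr3c1, the glucocorticoid receptor, read 8.46, 8.46 and 8.87. The oestrogen receptor genes Esr1 and Esr2 were under the level.

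Secreted factor genes were above in 251 of 389 cases, with 84 under and 54 neither. Their share of 64.5% was near the 62.3% of all clusters. Chemokine genes were above in 23 of 35 cases (65.7%), and 13 of the 35 passed the antigenomic level. Cxcl12, the ligand of CXCR4, read 13.69, 13.58 and 13.80, Cxcl16 13.12, 13.26 and 12.39, and Cxcl13, which draws B cells, 13.15, 11.12 and 13.17. Ccl9, Ccl3 and Ccl6, which macrophages release, read 13.40, 12.60 and 12.53, 12.24, 11.49 and 11.49, and 11.22, 9.94 and 10.51. Ccl2, the monocyte attractant, read 10.80, 11.53 and 9.28. Of the chemokines that draw neutrophils, Cxcl1 read 6.55, 6.55 and 5.84, Cxcl2 6.23, 8.07 and 5.68, Cxcl3 7.56, 9.23 and 7.57, Cxcl5 6.45, 7.37 and 5.40, and Ppbp 7.89, 8.76 and 7.65. Of these 5, Cxcl5 was called neither and the others above. Cxcl1 and Cxcl5, however, both read under the antigenomic level on every array, and Cxcl2 did so in controls 1 and 3. Cxcl5 read higher than Cxcl1 in control 2 and lower in controls 1 and 3, so their calls do not rank them by signal. Cxcl10, an interferon-induced ligand, read 8.27, 9.08 and 8.14, highest in control 2 as were most interferon-stimulated genes.

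Interleukin, interferon and TNF family ligands were above in 21 of 56 cases and under in 24. The bright exceptions were the inhibitor Il1rn (12.44, 11.92 and 10.81), Il33 (10.46, 10.30 and 9.58), an alarmin of stromal cells, Il18 (8.68, 9.97 and 9.71) and the cardiotrophin gene Ctf1 (9.29, 9.39 and 9.22). Il1b read 5.77, 6.96 and 5.80 and Tnf 5.91, 6.60 and 5.59, and both were called neither. Il6 was above with 7.08, 7.14 and 5.53, but control 3 lay under the level. Ifnb1 was under with 5.08, 5.21 and 5.18, also in control 2, whose interferon-stimulated genes were high, and Ifng was neither. The lymphocyte cytokines Il2, Il4, Il17a and Il22 were under. Without control 1 the count was 17 of 56.

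Growth factors that keep macrophages and Cajal cells alive were above. Csf1, the main macrophage growth factor, read 13.96, 14.27 and 14, and Kitl (stem cell factor) 12.07, 11.73 and 11.80. Csf2 and Csf3 lay under the level, with Csf2 at 4.26, 4.59 and 4.91. Neurotrophic factors were above in 11 of 22 cases (50%, against 62.3% of all clusters), and 6 of the 22 passed the antigenomic level. The heparin-binding factors Ptn (15.52, 15.46 and 15.51) and Mdk (12.77, 12.98 and 13.33) led them. Gdnf read 5.83, 5.32 and 5.76 and Edn3 5.96, 6.01 and 6.44, so neither ligand was called above, although the genes of their receptors Ret, Gfra1 and Ednrb were. Nrtn, which acts through GFRA2, read 6.10, 6.53 and 6.31 and was above, while Artn and Pspn were under. The guidance genes Slit3, Sema3c and Sema3a read means of 12.26, 11.28 and 10.77.

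Epithelial and mesenchymal signals were both found. Shh and Ihh, the hedgehog ligands of gut epithelium, read 7.62, 8.07 and 8.17, and 7.20, 8.13 and 7.47, and Dhh was under. Of 37 hedgehog and WNT genes 15 were above, led by antagonists and enhancers: Sfrp1 (12.96, 12.28 and 12.65), Rspo3 (12.13, 10.82 and 11.72) and Sfrp2 (9.36, 10.91 and 11.65). Wnt5a, which the mouse gut needs to elongate, read 10.18, 8.98 and 9.68 and Wnt4 8.29, 8.99 and 9.09, while Wnt1, Wnt3, Wnt3a and Wnt6 lay under the level. BMP and TGF-beta genes were above in 25 of 35 cases (71.4%, against 62.3% of all clusters), and 17 of the 35 passed the antigenomic level. Bmp4 read 13.31, 12.48 and 12.97, and its antagonist Grem1, of muscle layers and the cells beneath crypts, 13.08, 10.67 and 11.35. Chrdl1, another BMP antagonist, ranged from 7.39 in control 2 to 10.71 in control 1. Like the contractile genes, both antagonists were highest in control 1 and lowest in control 2.

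The insulin-like growth factor axis was bright, as Igf1 read 15.34, 14.42 and 15.44, Igfbp7 14.77, 15.07 and 14.38, and Igfbp2 13.78, 13.40 and 14.19. Vegfa read 12.74, 14.09 and 12.73 and Igfbp3 12.35, 13.87 and 12.70, each at least 1 higher in control 2 than on the other arrays. Of the 50 measured genes of the FGF, IGF, PDGF, VEGF, EGF and HGF families 36 were above (72%, against 62.3% of all clusters). The antigenomic level was passed by 22 of the 50, while Egf, Tgfa, Fgf4 and Fgf8 were under the silent-receptor level.

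Transmitter and peptide genes were above in 17 of 36 cases and in 14 without control 2. Penk (enkephalin) read 10.27, 11.61 and 10.44, Vip 9.09, 9.07 and 8.79, Tac1 (substance P) 8.63, 8.94 and 8.56, and Cartpt 8.74, 9.16 and 8.22. Nos1, the nitric oxide synthase of inhibitory motor neurons, read 7.06, 8.22 and 7.60. The cholinergic genes differed in call: Slc5a7 (the choline transporter) read 8.38, 9.24 and 8.89 and Slc18a3 (the vesicular transporter) 5.88, 7.20 and 6.62, both above, while Chat, which makes acetylcholine, was under with 4.17, 5.01 and 4.37. The serotonin transporter gene Slc6a4 read 9.27, 9.66 and 9.64. Gal (galanin) was under with 4.58, 4.59 and 4.59, as were the glutamate transporter genes Slc17a6 and Slc17a7.

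Matrix genes were above in 44 of 47 cases with a median of 11.29. Sparc read 17.57, 16.97 and 17.73, Fn1 (fibronectin) 15.91, 15.23 and 15.50, and Mfap4 (of elastic fibres) 15.69, 14.75 and 15.65. Control 2 was the lowest array for 30 of the 47. Tenascin-R and tenascin-N genes (Tnr, Tnn) and Ncan, which are best known from nervous tissue or bone, were under. Metalloproteinases and their inhibitors were above in 29 of 32 cases. Mmp2 read 13.81, 13.42 and 14.03, Timp2 13.52, 13.53 and 14.16, and Mmp12, the macrophage elastase, 15.84, 15.14 and 13.30. Mmp9, Mmp10 and Mmp13 were lowest in control 3 as well, with Mmp13 at 8.59, 9.09 and 6.61. Among complement and carrier proteins 27 of 33 were above. Clu (clusterin) read 15.76, 16.56 and 16.72, Apoe 15.70, 14.25 and 15.33, and Lcn2, which takes iron from bacteria, 11.17, 13.69 and 12.40. C3 read 6.47, 8.76 and 7.78, so that control 1 lay lowest and control 2 highest, as for Lcn2.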

How the data were processed

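RNA of the cultures (100 ng, labelled with the GeneChip WT Plus kit) was hybridised to Clariom S arrays. Per the study's methods the Transcriptome Analysis Console was used. The values that the authors deposited are on the log2 scale, with 1 column for each array and 1 row for each transcript cluster. Normalization, summarisation and genome build are not given in the sources used here. Array medians were 7.49, 7.52 and 7.53. Precision is limited by having 3 arrays and by the signal over background.

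Of 28846 entries, 6640 control entries were left out. A single symbol from the platform table named 19572 of 22206 clusters, the study's supplementary tables named 36 more, and 2598 have no name here. Where a symbol had several clusters (56 symbols), the one with the highest mean was used. Of 1141 genes in 50 lists of cell types, regions, receptors and secreted factors, 1053 had a named cluster.

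From each value the array's own silent-receptor level was subtracted, and limma 3.58.1 in R 4.3.3 (lmFit with an intercept alone, eBayes, two-sided p) was run on the 3 control arrays, with 2 residual and 7.38 prior degrees of freedom. An exact test on 3 arrays could not pass the threshold. Alternatives were other background levels, no adjustment, a prior with an intensity trend, the spread of all 12 arrays, quantile normalization, only clusters with 1 symbol, a mean over a gene's clusters, each array's own value, and leaving out each array. The fit was also run on data simulated with the spread that limma itself had fitted, which cannot test the choice of level.

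Members, lists and tests were chosen with earlier results of these data known, and 2 lists (squamous and airway epithelium) were added after the values had been seen. The rule named the 25 clusters of highest mean, the 15 of largest SD with a mean above the level, 5 markers, and per list up to 6 genes above the level with the highest means and up to 4 others that define it. Other genes named were chosen for their known roles after their values had been seen.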

Additional observations from a re-analysis of the deposited data

How the results depend on the processing

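The counts depend mainly on the level taken as background. Against the 90th percentile of 23 antigenomic background entries, 9849 of 22206 clusters lay above (13826 with the silent-receptor level). So did 116 of 356 receptor genes (213), 160 of 389 secreted factor genes (251) and 16 of 46 region genes (26). Against the 90th percentile of 5222 control entries marked neg, a level added after the data had been seen, 5907 clusters (13826), 101 of 309 cell type genes (223), 54 receptor, 97 secreted factor and 4 region genes lay above. That these levels are higher follows from their values of 7.70 to 7.83 and 9.80 to 9.91, against 5.71 to 5.94. The other settings kept each count within 1.5 times.

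Leaving out 1 array gave 13484 to 13862 clusters, 217 to 224 cell type, 25 to 26 region, 205 to 213 receptor and 242 to 246 secreted factor genes above. Of 673 list genes above the level, 26 were lost without control 1, 16 without control 2 and 25 without control 3. The mast cell and brain glia lists had 2 genes above without control 2, against 1 each. No paired analysis was possible because only 1 group was used. Dim genes near the level, such as Sox10 and Gdnf, cannot be called expressed or silent at this signal.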

Other observations

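Of the 6 measured genes of the Y chromosome, 3 were above the silent-receptor level and 3 under it. Eif2s3y, a translation factor gene, read 11.92, 11.27 and 9.96 in controls 1, 2 and 3, Uty, a histone demethylase gene, 11.42, 11.21 and 9.69, and Kdm5d, another histone demethylase gene, 9.34, 8.54 and 7.46. All 3 were highest in control 1 and lowest in control 3. Under the level lay the testis-determining gene Sry with 5.34, 5.36 and 4.69, Usp9y with 4.50, 4.54 and 4.41, and Zfy1 with 3.11, 3.11 and 3.56.

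Other single genes, chosen after their values had been seen, also differed between the arrays. Prm1, which encodes a protamine of sperm, read 11.11, 7.65 and 10.90, with control 2 apart. Tmigd1, a gene of kidney and gut epithelium, read 10.37, 7.65 and 7.60, with control 1 apart. Prrx1, from the list of mesenchymal transcription factors, read 6.32, 9.09 and 8.78. Housekeeping genes differed little, with list means of 16.11, 15.98 and 15.95 and a median SD of 0.14.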
